A study of Mus musculus with 61 samples.

Results

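The synaptic vesicle and release machinery is described here as 40 presynaptic genes, followed in the developing mouse brain with liver as a non-neural tissue. The genes were chosen by what their proteins do, with earlier results of these data known. Each of the 40 symbols matched 1 of the 43346 gene identifiers of the expression matrix. They are 8 vesicle proteins (synapsins, synaptophysins and the SV2 family), 3 vesicle GTPases, 10 synaptotagmins, 6 SNARE proteins, 4 SNARE regulators, 6 active zone proteins, 2 dynamins and the synuclein gene Sncb. All 40 passed the filter on low values, which left 18655 genes for testing. Cplx3 passed it narrowly, with no library above 1.80 TPM, the length-scaled transcript level used throughout.

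RNA sequencing with a stranded mRNA library kit covered 61 libraries of fetal and newborn mouse tissue. Forebrain (15 libraries), midbrain (16) and hindbrain (16) were taken at the embryonic stages E10.5, E11.5, E12.5, E13.5, E14.5, E15.5 and E16.5, counted in days, and on the day of birth (P0), and liver (14 libraries) at all of these stages but E10.5. Groups of 1 tissue and 1 stage held 2 libraries each, and that of E10.5 forebrain held 1. No group carries a treatment or an engineered allele in the labels, the strain is not given in the sources used here, and the labels do not say whether the 2 libraries of a group came from separate animals or pools, so p-values measure the spread between libraries only. TPM values are scaled by transcript length and library size, which allows levels to be compared between genes; the read depth behind them is unknown, and 12104 to 15561 genes reached 1 TPM per library.

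Markers fit most labels: 3 forebrain genes (Emx1, Tbr1 and Dlx1) summed to 51.7 to 322 TPM in forebrain libraries and at most 49.9 TPM elsewhere, and 6 neuron markers to 400 to 4470 TPM in brain libraries against 3.05 to 33.5 TPM in liver. Several libraries stood apart. Hoxb3, a hindbrain and spinal cord gene, was at 87.6 and 78.0 TPM in the E15.5 libraries labelled midbrain, against 0.15 and 0.24 TPM in the libraries labelled hindbrain at E15.5; at E14.5 midbrain held 2.08 and 0.40 TPM and hindbrain 78.0 and 105 TPM. Comparisons between regions are therefore given with and without E15.5, and averages over the 3 regions do not depend on which of these labels is right. The headers of 4 midbrain and hindbrain columns, called unnumbered here, give another stage than the sample records, and the header was followed. The 2 midbrain libraries of E16.5 differed, with members summing to 4070 TPM in the unnumbered one and 3013 TPM in the other. Rps27, a ribosomal protein gene, split the libraries into 28 with at least 451 TPM and 33 with at most 194 TPM. All libraries of E10.5, E12.5 and E15.5 were in the high class, so at these stages stage and class cannot be told apart. The midbrain libraries of P0 were also high, while those of forebrain P0 and all brain libraries of E11.5 were low. At E13.5 hindbrain and liver were high, and forebrain and midbrain low. Stage and class therefore cannot be told apart in the midbrain change from E11.5 to P0. The same holds in part for comparisons between regions that use hindbrain E13.5 or midbrain P0. The 2 hindbrain libraries of P0 fell in different classes, and the members differed between them by a median of 0.111 on the log2(TPM + 1) scale, against 0.132 for all tested genes. The 6 brain libraries of E12.5 held 3.64 to 112 TPM of the hepatocyte gene Alb.

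A synaptic vesicle is filled with transmitter, docks at the active zone of the nerve terminal and fuses when calcium enters. Fusion is driven by SNARE proteins on the vesicle (synaptobrevins, the Vamp genes) and on the plasma membrane (Stx1a and Snap25); synaptotagmins sense calcium, complexins clamp and promote the SNARE complex, NSF takes it apart for reuse, and dynamin cuts the membrane during vesicle retrieval. Rab3 GTPases and the active zone proteins RIM, Munc13 (the Unc13 genes), Bassoon and Piccolo tether and prime vesicles, and synapsins hold the reserve pool.

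In brain, averaged over the 3 regions from E11.5 to P0, 36 of the 40 members were higher than in liver and none lower (limma, Benjamini-Hochberg adjusted p at most 1.53e-28 for those called). A gene was called at an adjusted p below 0.05, taken over all tested genes, with a difference of at least 1 on the log2(TPM + 1) scale. Of all tested genes 44.0% were called higher, and the median difference was 3.99 over the members against 0.82 over all tested genes. For 34 members every one of the 42 brain libraries lay above every one of the 14 liver libraries, which held for 29.8% of tested genes. The largest difference was that of the plasma membrane SNARE gene Snap25 (chr2:136713453-136782428, plus strand, GRCm38; log2 difference 6.54 ± 0.0334, SE), which had 13.1 TPM in the lowest, 133 in the median and 405 in the highest brain library, against 0.03, 0.13 and 0.68 TPM in liver. Syp, the vesicle membrane protein synaptophysin, had 29.0, 143 and 462 TPM in brain and 0.20, 0.465 and 1.38 TPM in liver (6.33 ± 0.0375). Brain and liver did not overlap for either gene. Sncb, which encodes beta-synuclein (chr13:54758860-54766595, minus strand), was listed at 0 in 6 of 14 liver libraries and reached 0.08 TPM there, while it ran from 1.26 TPM in the lowest brain library to 288 TPM in the highest.

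The 4 members not called were Sypl, Snap23, Vamp3 and Cplx3. Snap23 and Vamp3, SNARE genes used widely in non-neural secretion, passed on adjusted p (limma, 3.03e-20 and 4.24e-23) but differed by less than 1. Sypl, a synaptophysin relative found in many tissues, passed on neither. Sypl had 19.2, 26.0 and 32.8 TPM (lowest, median, highest) in brain and 19.3, 24.1 and 37.4 TPM in liver, a log2 difference of 0.05 ± 0.0274 (adjusted p = 0.0874). Snap23 had 12.53, 22.0 and 51.6 TPM in brain and 24.97, 35.6 and 71.9 TPM in liver (-0.64 ± 0.0312), and Vamp3 had 27.8, 41.6 and 89.7 TPM in brain and 21.5, 29.0 and 55.8 TPM in liver (0.61 ± 0.0242). The ranges overlapped for all of these. Their position depends on the scale: with median-of-ratios scaling, which brings the median over all genes to 0.02, Sypl stood at -1.12 and Snap23 at -1.81, both called lower in brain, and Vamp3 at -0.56, while Vamp1 lost its call (1.66 as deposited, 0.68 rescaled). On that scale 35 members were higher in brain, against 22.3% of all tested genes. Cplx3, a complexin best known from retina, was not called either (0.40 ± 0.0238); it was listed at 0 in 13 of 14 liver libraries and held a median of 0.125 TPM in brain.

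Each member was placed in an order of onset by the stage at which its mean over the 3 regions first reached 50% of its highest stage mean. Between 0 and 14 members were placed at each stage, and Sypl came first and Syt2 last. Median-of-ratios scaling left 32 of the 40 members at the same stage, and leaving out any 1 library left 37 to 40.

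**Figure D1:**
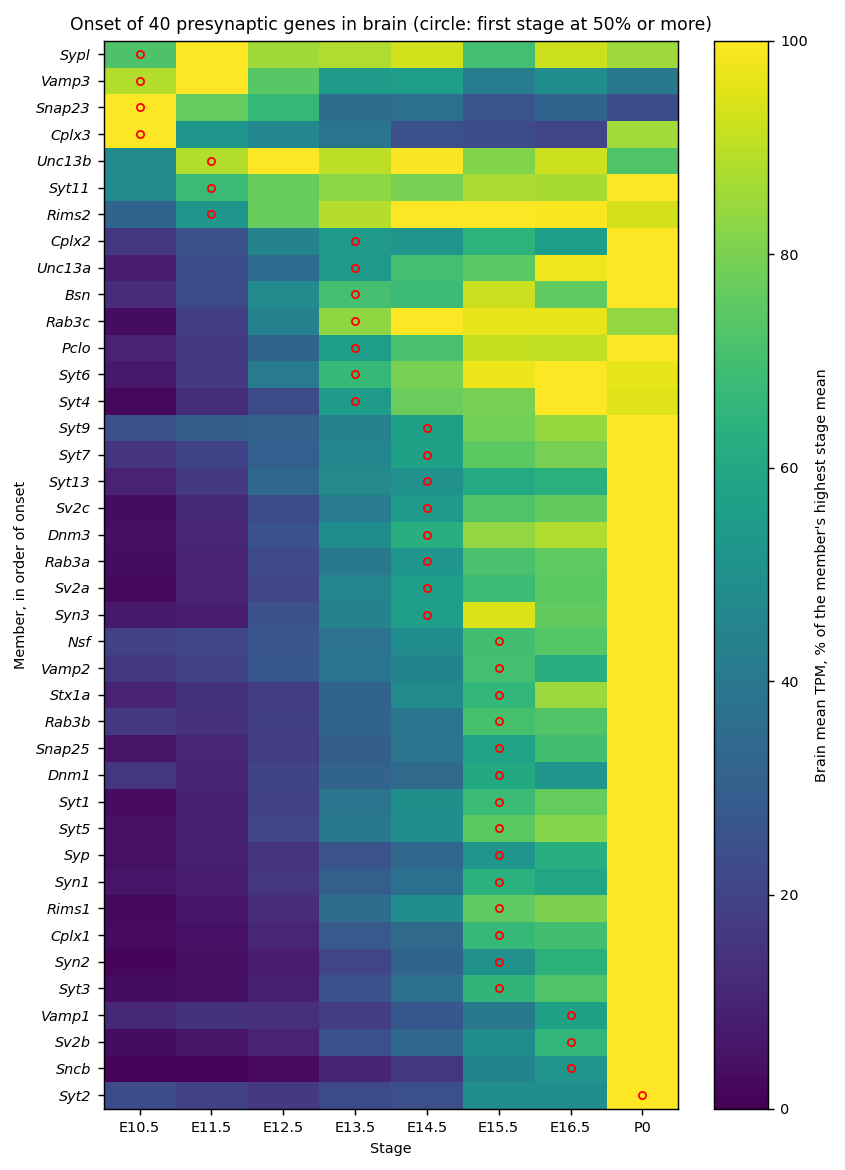
Stage means of the 40 members over the 3 brain regions, as percent of each gene's highest stage mean, with stages along the horizontal axis and genes down the page in order of onset. The upper 7 genes are at or above 50% by E11.5, and 31 genes have their highest mean at P0.

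Sypl, Vamp3, Snap23 and Cplx3 reached 50% at E10.5, the first stage sampled, and Unc13b (Munc13-2, a priming factor), Syt11 (a synaptotagmin without calcium binding) and Rims2 at E11.5. The place of Cplx3 rests on values near 0. Its highest stage mean was 0.928 TPM, and it stood at 20.8% of that at E16.5 and 86.0% at P0. Syt11 was already the most abundant synaptotagmin at E11.5, with a brain mean of 128 TPM, against 15.9 TPM for Syt1, the main calcium sensor of fast release. None reached the level at E12.5. The 7 members of E13.5 were Cplx2, Unc13a (Munc13-1), Bsn and Pclo (the scaffolds Bassoon and Piccolo), Rab3c, Syt6 and Syt4. The 8 of E14.5 were Syt9, Syt7, Syt13, Sv2c, Sv2a, Dnm3, Rab3a and Syn3. Cplx2 stayed near the mark, at 54.0% at E13.5, 52.0% at E14.5 and 55.9% at E16.5. Placed by region without E15.5, Cplx2 came at E16.5 in forebrain, E12.5 in midbrain and P0 in hindbrain. Unc13a, Syt6 and Syt4 came at E16.5 in forebrain when placed in that way.

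The 14 members of E15.5 were Nsf, Vamp2, Stx1a, Snap25, Rab3b, Dnm1, Syt1, Syt5, Syt3, Syp, Syn1, Syn2, Rims1 and Cplx1. Vamp1, Sv2b and Sncb followed at E16.5 and Syt2 at P0. The brain libraries of E15.5 were all high in Rps27 and those of E14.5 and E16.5 all low. Of the 14, Vamp2, Dnm1 and Syn1 had lower means at E16.5 than at E15.5, and the others higher ones. All 14 were also at 50% or more at E16.5, where they would be placed with E15.5 left out. At E11.5 Stx1a stood at 14.6%, Snap25 at 10.6% and Syn2 at 3.96% of their highest stage mean, and Sncb at 0.876%, the lowest share among the members. The place in the order is relative to each gene's own peak, so a late place does not mean a low early level: Vamp2 had a brain mean of 412 TPM at P0 and already 79.6 TPM at E11.5. By E14.5, 22 members had reached 50%; with a mark of 25% it was 38 members, and with 10% all 40.

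Tested against E11.5, with the 3 regions averaged, the number of members called higher was 14 at E12.5 (background 2.50%), 27 at E13.5 (7.18%), 30 at E14.5 (9.73%), 32 at E15.5 (12.7%), 32 at E16.5 (14.2%) and 33 at P0 (17.5%). The median log2 change over the members was 0.82, 1.51, 1.61, 2.22, 2.22 and 2.52 at these stages, against a median over all tested genes between -0.03 and 0.06. The 14 called at E12.5 stayed called at every later stage and were led by Rab3c (1.40), Syn3 (1.34) and Rab3a (1.19). With the libraries rescaled by median-of-ratios 8 were called at E12.5 (background 2.02%), and with quantile normalization 5 (1.73%). Snap23 fell (at P0 -1.63) and Vamp3 was called lower from E15.5; at P0 12.3% of tested genes were called lower. The first members to move could be seen a stage earlier: at E11.5 against E10.5, 8 members were higher (background 4.49%), namely Syt4 (2.22 ± 0.101), Rab3c (2.12), Sv2a (1.80), Syt1 (1.53), Rab3a (1.51), Unc13a (1.47), Snap25 (1.17) and Dnm3 (1.05), and none lower. The E10.5 average rests on 1 forebrain library, and the E10.5 libraries were all high and the brain E11.5 libraries all low in Rps27. Among members called, adjusted p was at most 1.22e-07 at E12.5 and lower at the other stages.

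**Figure D2:**
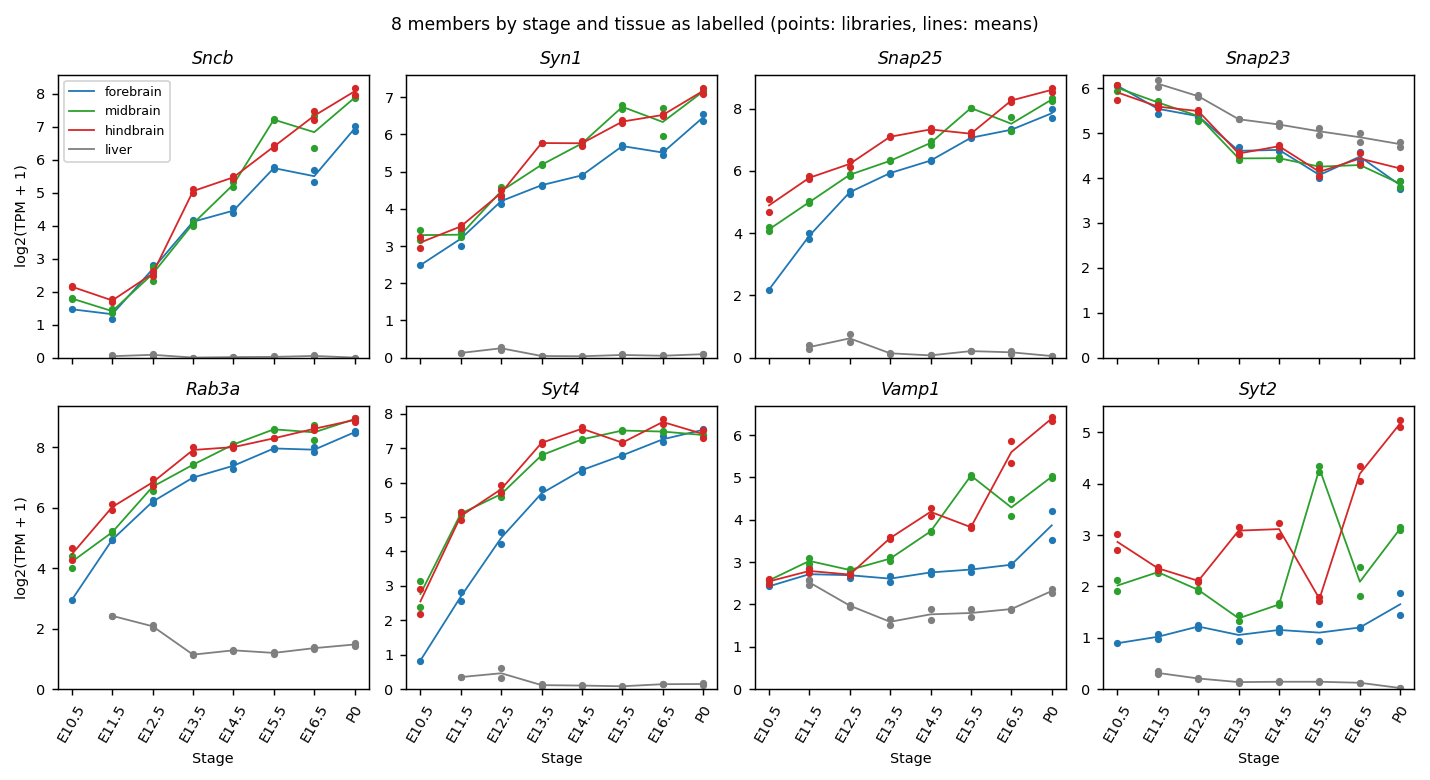
log2(TPM + 1) of 8 members by stage in the 4 tissues as labelled, with points for libraries and lines through the means. Snap25 and Sncb end higher at P0 than at E11.5 in all 3 brain regions while Snap23 ends lower, and at E15.5 the midbrain and hindbrain lines of Syt2 and Vamp1 cross over.

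Between E11.5 and P0, 33 members rose in forebrain (background 19.2%), 32 in midbrain (18.3%) and 33 in hindbrain (16.2%). Snap23 and Vamp3 fell in forebrain and midbrain and Snap23 alone in hindbrain; of all tested genes 11.8%, 15.1% and 11.8% fell in forebrain, midbrain and hindbrain. Adjusted p was at most 6.92e-09, 4.48e-10 and 6.79e-07 for the members called. The members' median log2 change was 3.01 in forebrain, 2.59 in midbrain and 2.4 in hindbrain, against 0.02, -0.01 and -0.02 over all tested genes. In bulk tissue, a change in the number of cells that express a gene and a change in RNA per cell cannot be told apart. The summed level of 6 neuron markers (Tubb3, Dcx, Map2, Rbfox3, Elavl3 and Elavl4) was also higher at P0 than at E11.5. It was 3.04 times as high in forebrain, 2.41 times in midbrain and 1.43 times in hindbrain, and the members' sum 5.37, 5.49 and 5.12 times. At E13.5 the marker sum was 2800 to 2820 TPM in forebrain, 3870 to 4010 in midbrain and 3890 to 3950 in hindbrain. At P0 it was 3420 to 3790, 3890 to 4000 and 2780 to 3140 TPM. The members' mean sum was 1360, 1877 and 2315 TPM at E13.5 and 3667, 4746 and 4991 TPM at P0. Markers of other cells moved too. The sum of 4 astrocyte markers at P0 was 264 to 273 TPM in forebrain, 319 to 327 in midbrain and 803 to 846 in hindbrain, against 6.22 to 9.18 TPM at E11.5 over the 3 regions, and that of 5 erythroid markers 918 to 2120 TPM at P0 against 8720 to 12000 TPM. The part of cell makeup in the members' changes was not tested.

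**Figure D3:**
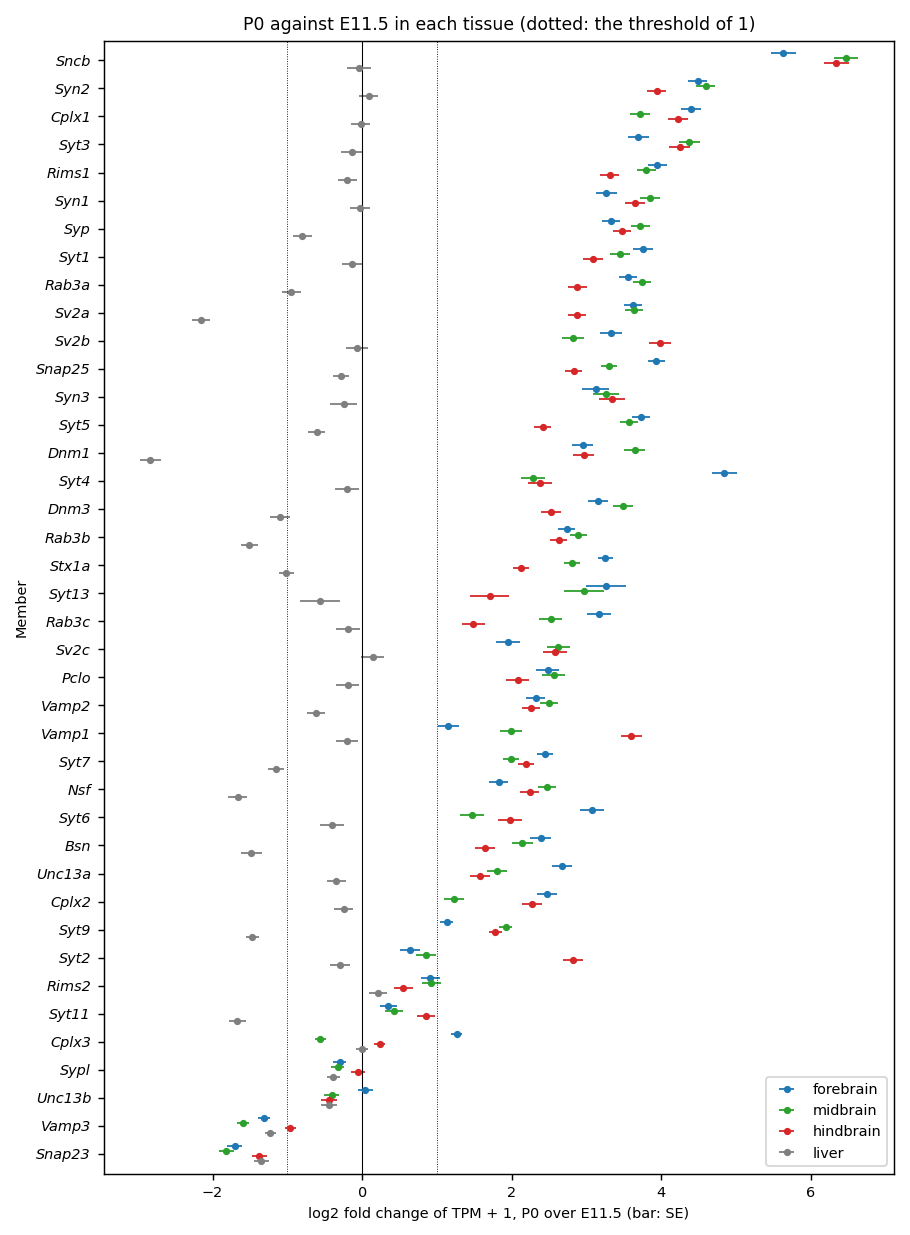
The log2 change of TPM + 1 at P0 over E11.5 for each of the 40 members in forebrain, midbrain, hindbrain and liver, with SE bars and dotted lines at 1 and -1. Most brain points lie right of 1, Vamp3 and Snap23 lie left of 0 in all 4 tissues, and Syt4, Vamp1 and Syt2 have the brain regions far apart.

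Among the vesicle proteins, 7 of 8 rose in each region, all but Sypl. Sncb, which sits on vesicle membranes without crossing them, had the largest change of any member in all 3 regions. It held 129 and 116 TPM in P0 forebrain against 1.74 and 1.26 TPM at E11.5, 233 and 236 TPM in P0 midbrain against 1.55 and 1.76 TPM, and 250 and 288 TPM in P0 hindbrain against 2.21 and 2.44 TPM. No P0 library came near an E11.5 library, and the log2 changes were 5.63 ± 0.164, 6.47 ± 0.164 and 6.34 ± 0.164 (adjusted p at most 1.87e-25). Syn2, a synapsin, had 55.1 and 53.7 TPM in P0 forebrain against 1.29 and 1.68 TPM at E11.5 (4.48 ± 0.128), and 92.7 and 95.3 TPM in P0 hindbrain against 5.20 and 5.17 TPM (3.94 ± 0.128). Syn1 changed by 3.27, 3.85 and 3.64 and Syn3 by 3.12, 3.26 and 3.34 in forebrain, midbrain and hindbrain. The transporter-like SV2 proteins had different levels: at P0 Sv2a held 124 to 191 TPM, Sv2b 16.2 to 30.0 TPM and Sv2c 4.15 to 28.6 TPM across the brain libraries. Their changes in forebrain, midbrain and hindbrain were 3.62, 3.64 and 2.87 for Sv2a, 3.33, 2.82 and 3.98 for Sv2b and 1.95, 2.62 and 2.57 for Sv2c. Syp reached 314 and 296 TPM in P0 forebrain against 30.0 and 29.0 TPM at E11.5 (3.33 ± 0.122), and Sypl was at 20.4 and 24.7 TPM against 25.3 and 30.7 TPM (-0.30 ± 0.0887). For Syp the 2 stages were far apart, and for Sypl all P0 forebrain libraries lay below those of E11.5 without reaching the fold threshold.

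The promoters of Syn1, Sncb, Syn2 and Snap23 are shown because Sncb had the largest rise and Snap23 the largest fall among the members, Syn1 held the rarer motifs described next, and Syn2 is the paralog of Syn1. The windows run from 250 bases before to 50 after the RefSeq transcription start on GRCm38.p6, 5′ to 3′ on the gene's strand. Capitals mark matches to 3 motifs, and in Syn1 a match to the first of them with 1 mismatch. The motifs, searched on both strands, were the RE1 core (TCAGCACC, 2 bases of any kind, GGACAG) bound by REST, a repressor of neuronal genes outside neurons, the cyclic AMP response element TGACGTCA, and the GC box GGGCGG. The windows lie at chrX:20920869-20921168 (minus strand) for Syn1, chr13:54766546-54766845 (minus) for Sncb, chr6:115134652-115134951 (plus) for Syn2 and chr2:120567421-120567720 (plus) for Snap23.
Syn1: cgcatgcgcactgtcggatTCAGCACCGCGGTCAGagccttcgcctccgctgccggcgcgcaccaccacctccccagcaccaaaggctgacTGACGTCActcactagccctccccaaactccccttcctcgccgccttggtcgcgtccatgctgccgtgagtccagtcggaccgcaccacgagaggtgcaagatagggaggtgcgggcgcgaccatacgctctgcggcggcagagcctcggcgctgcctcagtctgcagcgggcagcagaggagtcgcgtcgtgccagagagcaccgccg
Sncb: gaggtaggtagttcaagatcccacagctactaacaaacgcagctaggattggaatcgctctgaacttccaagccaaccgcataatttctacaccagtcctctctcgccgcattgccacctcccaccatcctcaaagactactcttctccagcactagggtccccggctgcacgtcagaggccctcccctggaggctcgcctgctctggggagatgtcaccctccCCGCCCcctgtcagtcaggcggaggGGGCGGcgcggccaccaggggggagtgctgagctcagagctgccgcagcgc
Syn2: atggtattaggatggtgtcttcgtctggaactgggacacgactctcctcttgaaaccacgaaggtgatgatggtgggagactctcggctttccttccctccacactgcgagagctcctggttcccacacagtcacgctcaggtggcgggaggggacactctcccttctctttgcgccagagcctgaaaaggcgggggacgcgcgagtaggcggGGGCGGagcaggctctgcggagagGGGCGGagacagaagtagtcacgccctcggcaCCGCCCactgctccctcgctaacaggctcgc
Snap23: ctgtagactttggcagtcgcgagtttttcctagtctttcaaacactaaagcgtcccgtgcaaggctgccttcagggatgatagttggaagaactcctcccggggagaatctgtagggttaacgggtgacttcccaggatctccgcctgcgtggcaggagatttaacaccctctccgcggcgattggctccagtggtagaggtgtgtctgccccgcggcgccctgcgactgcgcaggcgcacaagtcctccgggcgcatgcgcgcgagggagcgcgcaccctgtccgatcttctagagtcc

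Of the 40 members, 31 had a RefSeq window, 41 windows in all. The exact RE1 core was in none of the 41, and in 0.0244% of the 32851 windows of all genes. Allowing 1 mismatch, 1 of the 41 held it, that of Syn1 (A13T, counted from 1 at the motif's 5′ end), against 0.0913% of all windows. The response element was in 1 of 41, again Syn1, against 1.79% of all. GC boxes were in 27 of 41 windows, of 23 members, against 35.7% of all windows, and the member windows were also richer in CpG, with a median of 19 CpG per window against 7 in all windows; the part of base composition in the GC box share was not tested. Of the boxes, 2 are in the window of Sncb, 3 in the printed window of Syn2 and none in that of Snap23. Syn2 has 2 windows, of which 1 is printed. These letters describe the windows only.

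All 3 vesicle GTPases rose in each region. Rab3a, the main brain Rab3, reached 352 and 368 TPM in P0 forebrain against 29.7 and 29.8 TPM at E11.5 (3.55 ± 0.122), and 455 and 499 TPM in P0 hindbrain against 69.2 and 59.1 TPM (2.88 ± 0.122). Rab3b changed by 2.74, 2.89 and 2.63. Rab3c had a brain mean of 87.3 TPM at P0, below its highest of 104 TPM at E14.5; in forebrain it was 57.6 and 59.0 TPM at P0 against 4.42 and 7.02 TPM at E11.5 (3.17 ± 0.157), and in hindbrain 92.9 and 87.6 TPM against 33.0 and 30.2 TPM (1.49 ± 0.157).

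Of the 10 synaptotagmins 8 rose in forebrain, 8 in midbrain and 9 in hindbrain. Syt1 had 141 and 178 TPM in P0 forebrain against 9.62 and 12.2 TPM at E11.5 (3.75 ± 0.134), and changed by 3.45 in midbrain and 3.08 in hindbrain. Syt3, which binds calcium with high affinity, changed by 3.69, 4.37 and 4.25 in forebrain, midbrain and hindbrain. Syt5 changed by 3.73, 3.57 and 2.41 and Syt7, a slow high-affinity sensor, by 2.44, 1.99 and 2.19. Syt13, which lacks the residues that bind calcium, varied between forebrain libraries, with 20.1 and 9.82 TPM at E16.5 and 18.8 and 46.2 TPM at E14.5; its changes were 3.26 ± 0.265, 2.96 and 1.70. Syt9 was called in forebrain (1.13 ± 0.0868) but not without forebrain E11.5 replicate 1 (0.97). Syt11 was high throughout, with 157 and 167 TPM in P0 forebrain against 120 and 133 TPM at E11.5, and was not called in any region (0.35, 0.43 and 0.85). Syt6 rose by 3.08, 1.46 and 1.97. Syt2 and Syt4 follow with the regions.

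Among the SNARE genes the neuronal forms rose while their widely used relatives fell, in 1 case by less than the fold threshold. Snap25 held 209 and 253 TPM in P0 forebrain against 13.1 and 15.1 TPM at E11.5 (3.93 ± 0.108), and 372 and 405 TPM in P0 hindbrain against 56.0 and 51.8 TPM (2.83 ± 0.108). Snap23 held 12.53 and 14.2 TPM in P0 forebrain against 41.9 and 49.9 TPM at E11.5 (-1.70 ± 0.101); it fell by 1.82 in midbrain and by 1.38 in hindbrain. All P0 libraries were below all E11.5 libraries. Vamp2, the main synaptobrevin of the forebrain, rose by 2.32, 2.50 and 2.26 on the log2 scale, and Stx1a by 3.25, 2.80 and 2.12. Vamp3 changed by -1.31 ± 0.0784 in forebrain, -1.59 in midbrain and -0.96 in hindbrain, the last under the fold threshold.

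Within a library, Snap25 stood at 16.7 to 17.8 times Snap23 in P0 forebrain against 0.304 to 0.313 times at E11.5, at 22.7 to 23.1 against 0.610 to 0.613 in midbrain and at 21.1 to 23 against 1.06 to 1.22 in hindbrain. Vamp2 stood at 11.2 to 11.3 times Vamp3 in P0 forebrain against 0.867 to 0.899 times at E11.5, and at 10.9 to 12 against 1.19 to 1.22 in hindbrain. Cplx1 stood at 0.6 to 0.66 times Cplx2 in P0 forebrain against 0.124 to 0.145 times at E11.5, and at 1.41 to 1.59 against 0.352 to 0.380 in hindbrain. A ratio shows unequal change and does not say which gene moved. In liver Snap23 fell too (27.2 and 24.97 TPM at P0 against 64.0 and 71.9 TPM at E11.5). After rescaling that fall was under the fold threshold (-0.20 with median-of-ratios scaling, -0.46 with quantile normalization).

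**Figure D4:**
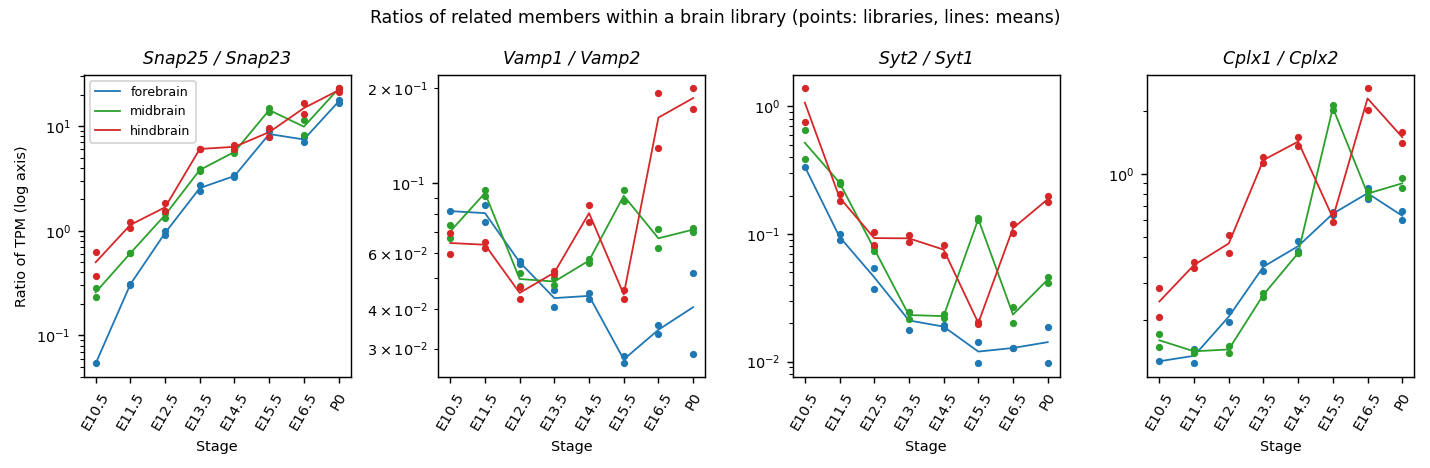
Ratios of TPM within each brain library (log axis) by stage for Snap25 over Snap23, Vamp1 over Vamp2, Syt2 over Syt1 and Cplx1 over Cplx2, with points for libraries and lines through the means. Snap25 over Snap23 runs upward in all 3 regions, while Vamp1 over Vamp2 and Syt2 over Syt1 spread apart by region at E16.5 and P0.

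The SNARE regulators and the active zone proteins were uneven. Cplx1 rose in all regions (4.40, 3.71 and 4.23), Cplx2 by 2.47, 1.22 and 2.28, and Nsf by 1.83, 2.47 and 2.24. Cplx3 was called in forebrain alone, with 1.29 and 1.80 TPM at P0 against 0.06 and 0.05 TPM at E11.5 (1.26 ± 0.0772; 0.91 and not called with quantile normalization). Of the 6 active zone genes 4 rose in each region: Rims1 (3.95, 3.80 and 3.31), Unc13a (2.67, 1.81 and 1.57), Bsn (2.38, 2.14 and 1.64) and Pclo (2.48, 2.56 and 2.08). Rims2 (0.91, 0.92 and 0.55) and Unc13b (0.04, -0.41 and -0.45) were not called. Unc13b was at 31.9 and 32.2 TPM in P0 forebrain against 26.5 and 36.4 TPM at E11.5, overlapping ranges, while Unc13a was at 58.9 and 78.6 TPM against 8.68 and 11.1 TPM. Rims2 was near the threshold: it was called in forebrain without forebrain E11.5 replicate 2 (1.24), and in midbrain with median-of-ratios scaling (1.05), without midbrain E11.5 replicate 2 (1.02), with the unnumbered libraries at the stage of their sample records (1.17) and with the Rps27 class as covariate (1.17). The dynamins Dnm1 (2.95, 3.65 and 2.96) and Dnm3 (3.15, 3.48 and 2.52) rose in each region.

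Over E11.5 to P0, forebrain was lower than hindbrain in 7 members and higher in none (background 3.28%; 8 without E15.5), led by Sv2c (-2.36 ± 0.0593; -2.58 without E15.5) and Syt2 (-1.91 ± 0.0505; -2.12), then Rab3c (-1.26), Vamp1 (-1.24), Cplx1 (-1.04), Dnm3 (-1.03) and Syt4 (-1.02). Without E15.5 Snap25 joined them (-1.11). With median-of-ratios scaling Cplx1 (-0.98), Dnm3 (-0.96) and Syt4 (-0.96) were under the fold threshold, which left 4. Against midbrain, forebrain was lower in 4 (1.77%), Rab3c (-1.23), Syt13 (-1.21), Syt2 (-1.19) and Sv2c (-1.13), of which Rab3c and Syt13 remained without E15.5. Between midbrain and hindbrain only Sv2c was called (-1.23; 0.718%); without E15.5 it was Sv2c (-1.78), Syt2 (-1.26) and Cplx1 (-1.11), all lower in midbrain. Sums were taken over 4 genes listed as sensory ganglion markers (Prph, Avil, Scn10a and Isl1). Forebrain libraries held 6.34 to 60.6 TPM, midbrain libraries 14.3 to 163 TPM and hindbrain libraries 27.6 to 247 TPM. Over all 5 genes of that list, the E15.5 libraries held 144 to 167 TPM labelled midbrain and 28.0 to 31.4 TPM labelled hindbrain. Other midbrain groups held at most 61.4 TPM and other hindbrain groups at least 54.1 TPM. In every forebrain group 3 or 4 of the 5 genes were under 1 TPM. The part of ganglion RNA in the members' differences between regions was not tested.

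At E11.5 to E13.5, forebrain was lower than hindbrain in 9 members (4.14%): Sv2c (-2.34), Syt4 (-1.74), Rab3c (-1.73), Syt2 (-1.42), Snap25 (-1.31), Cplx1 (-1.25), Dnm3 (-1.25), Rims1 (-1.08) and Sv2a (-1.01). Rims1 (-0.99 and -0.84) and Sv2a (-0.93 and -0.96) were under the threshold with median-of-ratios scaling and quantile normalization. At E16.5 and P0 it was lower in 8 (4.04%): Syt2 (-3.26 ± 0.0944), Sv2c (-2.77), Vamp1 (-2.59), Sncb (-1.48), Cplx1 (-1.28), Syt13 (-1.09), Nsf (-1.06) and Dnm1 (-1.02). Syt13 fell short without forebrain E16.5 replicate 2 (-0.85) or forebrain P0 replicate 2 (-0.93), and Dnm1 without the unnumbered hindbrain library of P0 (-0.92) and with median-of-ratios scaling (-0.97). Syt5 lay the other way, at 0.99 and not called. It was called higher in forebrain with median-of-ratios scaling (1.03, background 1.37%) and quantile normalization (1.05, background 1.70%). Against midbrain, forebrain was lower early in Syt4 (-1.60), Rab3c (-1.48), Cplx3 (-1.06) and Syt13 (-1.01) (1.61%). Of these, Cplx3 (-0.90 and -0.92) and Syt13 (-0.98 and -0.93) lost their calls with median-of-ratios scaling and quantile normalization, and Syt13 also on leaving out any of 5 single libraries (-0.89 to -0.98). Late, forebrain was lower than midbrain in 7 members (2.36%): Syt13 (-1.74), Vamp1 (-1.25), Sv2c (-1.20), Syt2 (-1.18), Dnm1 (-1.15), Sncb (-1.13) and Nsf (-1.07). The late count was 3 without the unnumbered midbrain library of E16.5, when Dnm1, Sncb, Nsf and Sv2c lost their calls. Midbrain was lower than hindbrain late in 5 (1.51%): Syt2 (-2.08), Sv2c (-1.57), Cplx1 (-1.38), Vamp1 (-1.34) and Sv2b (-1.05; -0.99 with median-of-ratios scaling). Early, Sv2c was lower (-1.95; 1.98%) and Cplx3 higher (1.03; 0.616%) in midbrain, the Cplx3 call being lost with both rescalings (0.88 and 0.95).

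**Figure D5:**
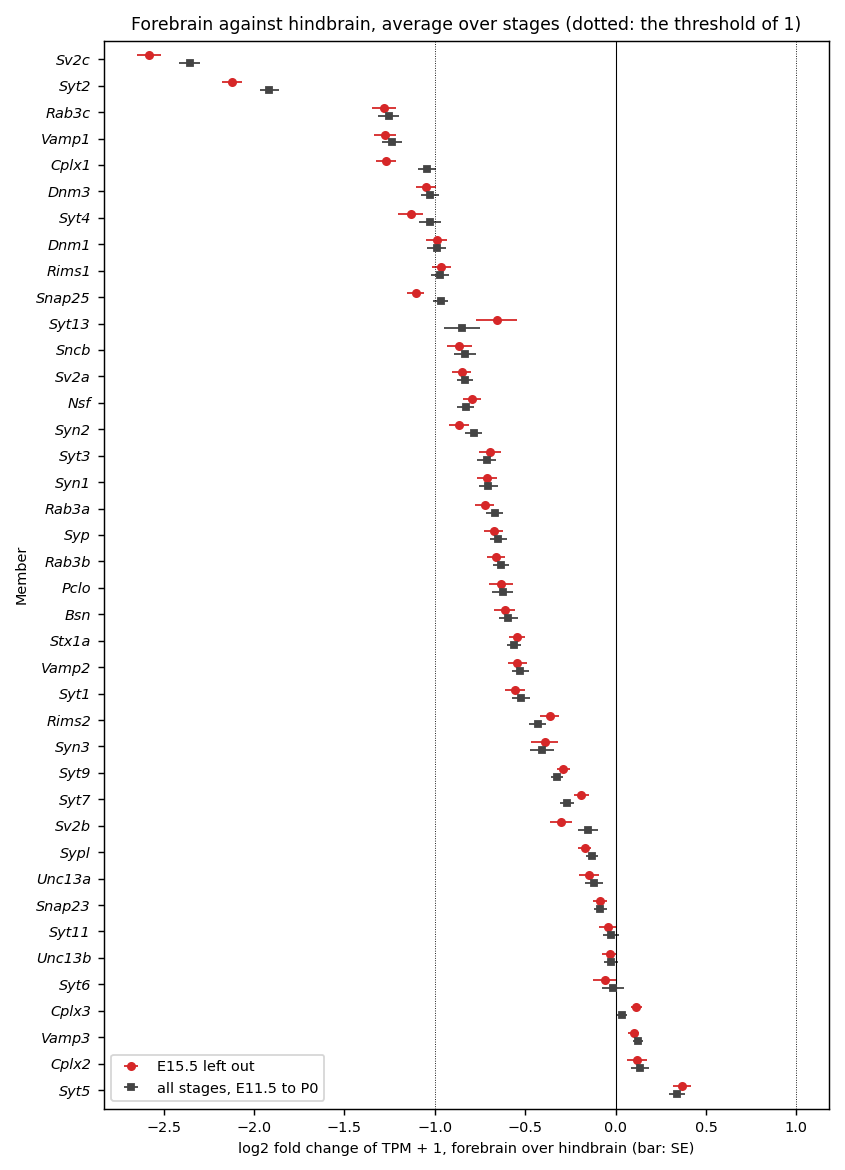
The log2 difference of TPM + 1 between forebrain and hindbrain for the 40 members, averaged over stages, with E15.5 left out (circles) and with all stages from E11.5 to P0 (squares), with SE bars. Most members lie left of 0, that is lower in forebrain, and Sv2c and Syt2 lie beyond the others.

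Syt2 (chr1:134646677-134762593, plus strand), a fast calcium sensor known from the hindbrain and spinal cord, and Vamp1 (chr6:125215551-125245964, plus strand), a synaptobrevin common in the same places, had the largest late differences between forebrain and hindbrain along with Sv2c. Syt2 had 2.64 and 1.72 TPM in P0 forebrain against 0.96 and 1.10 TPM at E11.5, 7.97 and 7.53 TPM in P0 midbrain against 3.93 and 3.78 TPM, and 33.4 and 37.1 TPM in P0 hindbrain against 4.03 and 4.21 TPM. It was called in hindbrain (2.82 ± 0.133) but not in forebrain (0.63) or midbrain (0.85), and the change in forebrain was smaller than in hindbrain by 2.19 ± 0.189 on the log2 scale (adjusted p = 5.28e-11). Vamp1 had 17.6 and 10.5 TPM in P0 forebrain against 4.92 and 6.28 TPM at E11.5, and 85.7 and 80.2 TPM in P0 hindbrain against 5.67 and 6.18 TPM. Its changes were 1.15, 1.99 and 3.6 in forebrain, midbrain and hindbrain, and the forebrain call was lost without forebrain P0 replicate 1 (0.81). At P0 Syt2 stood at 0.00966 to 0.0187 times Syt1 in forebrain, 0.0414 to 0.0463 in midbrain and 0.177 to 0.198 in hindbrain, and Vamp1 at 0.0289 to 0.0522, 0.0703 to 0.0725 and 0.172 to 0.200 times Vamp2. At E15.5 Syt2 was at 19.4 and 17.9 TPM in the libraries labelled midbrain and 2.47 and 2.31 TPM in those labelled hindbrain, while E16.5 midbrain held 2.51 and 4.18 TPM and E16.5 hindbrain 15.6 and 19.3 TPM.

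Syt4, a synaptotagmin with altered calcium binding, started low in forebrain. It held 0.78 TPM in the forebrain library of E10.5, 4.94 and 6 TPM at E11.5 and 186 and 182 TPM at P0; in hindbrain it held 6.48 and 3.58 TPM at E10.5, 34.3 and 29.2 TPM at E11.5 and 182 and 157 TPM at P0. At P0 the highest hindbrain library lay between the 2 forebrain libraries, and the change from E11.5 was larger in forebrain than in hindbrain by 2.46 ± 0.229 and than in midbrain by 2.56 ± 0.229 (adjusted p = 2.80e-10 and 2.87e-10). Forebrain changed more than hindbrain in 9 members (background 5.02%) and less in 2 (background 2.94%), Vamp1 (-2.45) and Syt2 (-2.19). Beside Syt4 the 9 were Rab3c (1.68), Syt13 (1.55), Syt5 (1.32), Stx1a (1.13), Snap25 (1.11), Syt6 (1.11), Unc13a (1.10) and Cplx3 (1.03). With quantile normalization Stx1a (0.97), Snap25 (0.95), Syt6 (0.96), Unc13a (0.89) and Cplx3 (0.80) fell under the threshold and Sncb (-1.10) and Sv2c (-1.01) passed it in the other direction, giving 4 members with more change in forebrain (3.83% of all tested genes) and 4 with less (3.31%). Forebrain changed more than midbrain in 4 (3.26%), Syt4, Cplx3 (1.82), Syt6 (1.61) and Cplx2 (1.25). Midbrain changed more than hindbrain in Syt13 (1.26), Syt5 (1.15) and Rab3c (1.03) (2.12%) and less in Syt2 (-1.97), Vamp1 (-1.61), Sv2b (-1.16) and Cplx2 (-1.05) (2.61%). Of these, Cplx2 was at -0.58 (adjusted p = 0.274) with the unnumbered libraries at the stage of their sample records, where Rab3c was at 0.97. Without the unnumbered libraries Cplx2 (-0.93), Rab3c (0.93) and Syt13 (1.25, adjusted p = 0.067) were not called, which left 4. In forebrain against hindbrain Syt6 was at 0.73 without forebrain P0 replicate 2, and Unc13a, Snap25 and Cplx3 also fell under the threshold without it.

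Onset placed region by region, without E15.5, was earlier in hindbrain than in forebrain for 23 members, the same for 13 and later for 4. Midbrain was earlier than forebrain for 20, the same for 18 and later for 2, and hindbrain was earlier than midbrain for 11, the same for 25 and later for 4. These counts were not made over all tested genes, so they do not set the members apart from other genes. At E13.5 the hindbrain libraries were high in Rps27 and those of forebrain and midbrain low, and the part of this in the order was not tested. Snap25 in forebrain held 156 and 162 TPM at E16.5 against 59.3 and 60.5 TPM at E13.5, and in hindbrain 294 and 318 TPM at E16.5 against 137 and 134 TPM at E13.5. At both stages the hindbrain libraries lay above those of forebrain.

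In liver, 12 members fell between E11.5 and P0 and none rose, with 38.2% of all tested genes called lower and a median of -0.37 over the members against -0.69 over all tested genes. The largest changes were those of Dnm1, at 0.42 and 0.42 TPM at P0 against 8.61 and 9.70 TPM at E11.5 (-2.84 ± 0.14), and Sv2a, at 0.23 and 0.19 TPM against 4.22 and 4.59 TPM (-2.16 ± 0.12). With median-of-ratios scaling 5 members were called lower, against 8.37% of all tested genes, and with quantile normalization 6, against 13%. Summed markers of other cell types moved over the same interval. In P0 liver 5 hepatocyte markers stood at 145000 to 150000 TPM, against 11200 to 12100 TPM at E11.5. The 6 neuron markers stood at 3.81 to 4.28 against 10.2 to 11.1 TPM. A list of 6 neural progenitor markers stood at 105 to 123 against 313 to 319 TPM. At each of these 2 stages 3 of the progenitor genes were under 1 TPM in liver, so their sum cannot be read as a measure of neural progenitors there. The members' sum at P0 was 0.446 times that of E11.5 and the neuron sum 0.380 times. The part of cell makeup in the fall was not tested. The change in brain exceeded the change in liver in 34 members (background 38.6%; median 3.41 over the members against 0.71 over all), led by Sncb (6.19), Dnm1 (6.02) and Sv2a (5.53); Sypl, Snap23, Unc13b, Vamp3, Rims2 and Cplx3 were not called. With median-of-ratios scaling it was again 34 members, against 18.9% of all, and Snap23 (-1.32) and Vamp3 (-1.09) were called the other way.

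A second list of 49 presynaptic genes, 47 of them tested, was examined alongside. In brain against liver, 38 were higher (44.0% of all tested genes), among them Cadps (5.59) and Sh3gl2 (5.07), and 2 were lower (9.33%), among them Vamp8 (-3.31). From E11.5 to P0, 35 rose in forebrain (19.2%), led by Syt16 (4.13), Syngr3 (4.00) and Sh3gl2 (3.94), and none fell; 34 rose in midbrain (18.3%), led by Syngr3 (4.43), Rph3a (4.42), Syngr1 (3.96) and Sh3gl2 (3.71), and Sncg fell (-1.38); and 34 rose in hindbrain (16.2%), led by Syngr3 (4.04), Syngr1 (3.93), Rph3a (3.67) and Sh3gl2 (3.45). In liver 11 of the 47 fell, against 38.2% of all tested genes, among them Rab27b (-1.55), Syngr1 (-1.54) and Bin1 (-1.49). Syngr1 and Syngr3 are synaptogyrins of the vesicle membrane. Forebrain was lower than hindbrain in 1 of the 47, Sncg (-4.82), against 3.28% of all tested genes.

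The members' summed TPM divided by that of the 6 neuron markers was 0.994 to 1.04 in P0 forebrain against 0.545 to 0.605 at E11.5, 1.18 to 1.22 against 0.513 to 0.544 in midbrain, and 1.63 to 1.75 against 0.464 to 0.479 in hindbrain. P0 and E11.5 libraries did not overlap in any region. From E11.5 to E13.5 the ratio stayed between 0.464 and 0.605 in every library, and from E14.5 to P0 between 0.547 and 1.75. In hindbrain the marker sum itself was 3890 to 3950 TPM at E13.5 and 2780 to 3140 TPM at P0. The ratio depends on both sums and is not a level per neuron. The single E10.5 forebrain library had a ratio of 1.26 with a marker sum of 400 TPM, the lowest among brain libraries.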

How the data were processed

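The deposited matrix holds TPM values per gene and library, made by the authors with STAR 2.4.0k and RSEM 1.2.23 on mm10, per the submitters' processing notes; per the labels' protocols, total RNA went into a stranded mRNA library kit. No counts were used here, so read depth is unknown and no count test was run. Identifiers were matched to GENCODE symbols. limma 3.58.1 (R 4.3.3) was fitted to log2(TPM + 1) of all 61 libraries, with 1 mean per tissue and stage (30 residual degrees of freedom), a mean-variance trend and a filter of 1 TPM in at least 2 libraries. Tests were two-sided, with Benjamini-Hochberg adjustment over 18655 genes, and the fit was tested on simulated data. Because 1 is added to each TPM, changes of low genes are understated. Members and gene lists were chosen with earlier results of these data known. All members could be named; of the 49 further presynaptic genes, up to 4 with the largest called change per comparison, and a few of these and of the marker genes are not reported here. The GC box and near-match motif searches, and the Rps27 alternatives, were added after seeing the data. Alternatives changed scaling, pseudocount, filter, trend, libraries and stages.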

Additional observations from a re-analysis of the deposited data

Results flagged for a closer look

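The change in TPM between E11.5 and P0 differed between brain regions for several members, tested as a difference of changes in limma with Benjamini-Hochberg adjustment over all genes; values are log2(TPM + 1) differences of the P0 minus E11.5 change. Forebrain changed more than midbrain in Syt4 (2.56), Cplx3 (1.82), Syt6 (1.61) and Cplx2 (1.25). Forebrain changed more than hindbrain in Syt4 (2.46), Rab3c (1.68), Syt13 (1.55), Syt5 (1.32), Stx1a (1.13), Snap25 (1.11), Syt6 (1.11), Unc13a (1.10) and Cplx3 (1.03). It changed less than hindbrain in Vamp1 (-2.45) and Syt2 (-2.19). Midbrain changed more than hindbrain in Syt13 (1.26), Syt5 (1.15) and Rab3c (1.03), and less in Syt2 (-1.97), Vamp1 (-1.61), Sv2b (-1.16) and Cplx2 (-1.05). Of these, Syt13, Rab3c and Cplx2 were not called without the 4 unnumbered libraries, and Cplx2 was at -0.58 (adjusted p = 0.274) with them at the stage of their sample records. With quantile normalization Stx1a (0.97), Snap25 (0.95), Syt6 (0.96), Unc13a (0.89) and Cplx3 (0.80) lost the call for forebrain against hindbrain.

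The change in brain exceeded that in liver in 34 of the 40 members, where the same direction was called for 38.6% of all tested genes.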

How the results depend on the processing

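Over the alternatives run for the counts of members called, most counts stayed within 1.5 times the reported one. Exceptions with median-of-ratios scaling were 8 members at E12.5, 5 in liver, 2 for forebrain against midbrain early, 4 for forebrain against hindbrain and 1 for midbrain against hindbrain early; with quantile normalization they were 5 at E12.5, 6 in liver, 2 for forebrain against midbrain early and 1 for midbrain against hindbrain early. A pseudocount of 0.1 gave 14 at E11.5 against E10.5, 22 in liver and 2 for midbrain against hindbrain. Without E15.5 it was 2 for forebrain against midbrain and 3 for midbrain against hindbrain. A filter of 5 TPM, and the Rps27 class as covariate, each gave 1 for midbrain against hindbrain early. Leaving out the 4 unnumbered libraries gave 3 for forebrain against midbrain late and 4 for the change in midbrain minus hindbrain. By E14.5, 38 members had reached 25% and 40 had reached 10% of their highest brain mean. Within the libraries low in Rps27, where fewer comparisons could be made, 31 were called at E14.5, 34 at E16.5, 35 in forebrain and 34 in hindbrain at P0. The causes were not tested.

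Replicate numbers did not pair the libraries: of 325 pairs of the 26 groups carrying both numbers, 27 correlated above 0.1 (median r 0.00327). With the replicate block, 3 members were called for forebrain against midbrain late and 4 for the change in midbrain minus hindbrain.

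Leaving out 1 library at a time gave 36 to 36 members called for brain against liver, 7 to 9 at E11.5 against E10.5, 10 to 15 at E12.5, 28 to 29 at E13.5, 30 to 31 at E14.5, 34 to 34 at E15.5, 33 to 34 at E16.5 and 35 to 35 at P0. It gave 34 to 36 in forebrain, 34 to 35 in midbrain, 34 to 34 in hindbrain and 11 to 12 in liver. Between regions it gave 4 to 4 for forebrain against midbrain (early 3 to 4, late 3 to 8), 6 to 8 for forebrain against hindbrain (early 8 to 9, late 7 to 9) and 1 to 1 for midbrain against hindbrain (early 2 to 3, late 4 to 5). For differences of change it gave 34 to 34 in brain minus liver, 4 to 6 in forebrain minus midbrain, 8 to 11 in forebrain minus hindbrain and 4 to 8 in midbrain minus hindbrain, where the lowest came without the unnumbered midbrain library of P0. Members at 50% by E14.5 numbered 21 to 23.

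Of 12119 alternative values for 275 results of single members, 11977 kept their direction and side of the threshold, 123 lost the call, 12 gained it and 7 changed sign. The sign changed for Sypl in brain against liver (-1.12 with median-of-ratios scaling, -0.99 with quantile normalization), for Vamp3 there (-0.56 and -0.37), for Unc13b in forebrain (-0.01 with quantile normalization; -0.18 to 0.26 over the libraries left out, the lowest without forebrain E11.5 replicate 1) and for Sypl in hindbrain (0.06 with median-of-ratios scaling). Read depth, not given by TPM, limits what can be said of members near 0 such as Cplx3.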
